A study of Mus musculus with 4 samples.

Results

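The homeobox genes of the families Pax, Lhx, sine oculis (such as Six3 and Six6), Dlx, Irx, Nkx, Otx, Pou, Isl, Hmx, Msx, Barhl, Emx, Gbx, Gsx, Vax and En were followed through DNA modification at CCGG sites in hearts of mice with a myocardial infarction. The members were chosen by name alone, as every autosomal protein-coding gene whose symbol is one of these 17 family names followed directly by a digit, with the cardiac gene Nkx2-5 left out. This gave 85 genes of 20661 autosomal protein-coding genes, on 18 of the 19 autosomes. All 85 had the 5 sites required of a measured gene, as did 16383 genes in all. The choice by name also brought in Pou2af1, a coactivator that binds Pou proteins and has no homeodomain, and Pax genes such as Pax1 and Pax9, which have a paired domain but no homeodomain.

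There were 4 groups with 1 sample each, all left ventricle DNA of C57BL/6 mice aged 8 weeks, taken 3 days after infarction. They were infarcted tissue of Neil3-/- mice, non-infarcted tissue of Neil3-/- mice, infarcted tissue of wild-type (WT) mice and non-infarcted tissue of WT mice. Neil3 is a DNA glycosylase that removes oxidized bases. The labels give the genotype without the extent of the targeted change, so the signal near Neil3 does not check it. They also do not give the number of mice behind a sample, whether mice were pooled, or whether both tissues came from the same hearts. Each sample had 3 libraries of short tags next to CCGG sites. HpaII cuts CCGG only where its cytosines are unmodified and gave the unmodified library. MspI cuts regardless of methylation and gave the total. MspI after glucosylation, which blocks cutting at 5-hydroxymethylcytosine (5hmC), gave the library of unmodified plus methylated cytosine, called C+mC here.

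Homeobox genes encode transcription factors that lay out the body axis, the nervous system, the eye, the skull, the kidney and the endocrine organs of the embryo. In adult tissue most of them are silent. Rather than being closed by DNA methylation, many are held silent by Polycomb proteins inside broad stretches of CpG-rich DNA that stay unmethylated, which have been called methylation valleys or canyons. Some of the families also act in the heart, such as Isl1 in the progenitors of the outflow tract and right ventricle, and the Irx genes in the ventricular wall and conduction system.

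The CCGG sites behind the ratios can be seen in the start regions of 4 members, shown because they hold at least 2 sites with a value in all 4 samples and belong to the members the naming rule picks by level, difference or list. Barhl1, Nkx2-1, Nkx2-9, Pou5f1 and Pou6f1 also hold 2 such sites and were not picked by that rule. Each line gives 250 bases before to 50 after a RefSeq start on GRCm38.p6 (mm10), read along the gene, and the capitals mark the CCGG sites with a value. The sequences are from RefSeq. Six2, a gene of nephron progenitors, is read from the minus strand at chr17:85688205-85688504. Gsx1, a gene of the embryonic brain and hypothalamus, is read from the plus strand at chr5:147188446-147188745. Lhx9, a gene of the gonad and limb, is read from the minus strand at chr1:138842395-138842694. Pou2f2, which encodes the B cell factor Oct-2, is read from the minus strand at chr7:25132411-25132710.
Six2 promoter: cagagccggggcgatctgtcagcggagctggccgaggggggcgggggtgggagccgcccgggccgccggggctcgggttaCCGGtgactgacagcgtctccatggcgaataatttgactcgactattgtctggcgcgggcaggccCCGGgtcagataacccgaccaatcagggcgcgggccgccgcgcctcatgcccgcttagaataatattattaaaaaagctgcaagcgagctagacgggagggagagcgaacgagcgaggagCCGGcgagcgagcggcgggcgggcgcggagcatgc
Gsx1 promoter: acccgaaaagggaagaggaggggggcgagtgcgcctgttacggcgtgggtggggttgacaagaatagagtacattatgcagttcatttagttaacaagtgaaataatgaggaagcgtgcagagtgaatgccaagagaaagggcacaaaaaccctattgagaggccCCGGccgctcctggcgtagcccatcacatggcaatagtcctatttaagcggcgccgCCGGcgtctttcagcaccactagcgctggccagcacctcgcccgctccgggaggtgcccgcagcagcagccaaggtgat
Lhx9 promoter: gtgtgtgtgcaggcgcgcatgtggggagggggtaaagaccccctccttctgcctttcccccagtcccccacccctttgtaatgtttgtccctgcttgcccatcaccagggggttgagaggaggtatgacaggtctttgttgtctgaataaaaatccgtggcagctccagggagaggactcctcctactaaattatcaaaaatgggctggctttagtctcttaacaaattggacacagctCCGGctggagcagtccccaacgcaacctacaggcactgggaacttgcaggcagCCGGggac
Pou2f2 promoter: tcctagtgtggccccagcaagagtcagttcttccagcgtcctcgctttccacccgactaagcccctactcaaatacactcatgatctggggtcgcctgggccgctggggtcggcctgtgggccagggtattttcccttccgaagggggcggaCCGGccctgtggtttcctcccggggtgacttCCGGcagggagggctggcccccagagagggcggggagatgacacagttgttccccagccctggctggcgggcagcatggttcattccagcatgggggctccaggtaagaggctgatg

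CCGG reads the same on both strands, and it was found in 67 of 80 start windows of the 63 members with a RefSeq start. That is 83.8% of windows, against 63.5% of the 20084 windows of all autosomal protein-coding genes. The members' windows were CpG-rich, with a median of 18 CpG per window against 14 over all genes. A smaller share of their CCGG sites carried a value. It was 44 of 214 sites (20.6%), against 33.0% over all genes. By window the coverage was near that of all genes. A site with a value lay in 34 of the 80 windows (42.5%), against 45.5% of windows over all genes.

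The levels at the printed sites differed widely between genes. At the 3 Six2 sites the HpaII signal summed to 86.8% of the MspI signal in Neil3-/- infarcted, 93.1% in Neil3-/- non-infarcted, 86.3% in WT infarcted and 93.7% in WT non-infarcted tissue. At the 2 Gsx1 sites the ratio was 223% in Neil3-/- infarcted, 245% in Neil3-/- non-infarcted, 298% in WT infarcted and 241% in WT non-infarcted tissue. These genes also differed in MspI signal, which ran from 138 to 221 at the Six2 sites and from 26.2 to 45.7 at the Gsx1 sites. At the 2 Lhx9 sites the ratio lay between 1023% and 1504% over the 4 samples, on MspI signals of 1.92 to 15.1, so a low total signal stands under those values. At the 2 Pou2f2 sites it lay between 456% and 994%, on MspI signals of 7.65 to 35.7.

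The deposited values are a signal the authors normalized, and the 3 libraries of a sample have nearly the same total. A ratio of HpaII to MspI signal is therefore relative. A gene at 200% takes a share of the HpaII library that is about 2 times its share of the MspI library, and no ratio here is a fraction of DNA molecules. How many tags stand behind a value is unknown. For each gene the signal was summed over the sites listed in all 4 samples within its span and 1 kb on either side. The members held 2009 such sites of 967498 on the autosomes, from 5 to 197 per gene with a median of 14, and no site counted for more than 1 member. In 9 members (Gbx2, Lhx3, Nkx6-2, Pax6, Pax9, Pou2f1, Pou5f2, Six4 and Six5) the window also overlapped another protein-coding gene. The C+mC library of WT non-infarcted tissue stood apart. Across autosomal sites its log2 signal correlated at 0.534 with the MspI library of its sample, against 0.698 to 0.725 in the other samples, and at 0.50 with the HpaII library, against 0.364 to 0.444. Comparisons that use that library are given beside those that do not.

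The homeobox genes carried a high unmodified signal in every sample. The median HpaII to MspI ratio of the 85 members was 205% in Neil3-/- infarcted, 203% in Neil3-/- non-infarcted, 219% in WT infarcted and 211% in WT non-infarcted tissue. Over all 16383 measured genes the median lay between 113% and 119% in the 4 samples, and in each sample 76 of the 85 members stood above it. A ratio above 100% was found for 81 members in Neil3-/- infarcted tissue, beside 70.7% of all measured genes, and for 80 in Neil3-/- non-infarcted tissue, beside 68.7%. It was found for 79 in WT infarcted tissue, beside 69.7% of all measured genes, and for 79 in WT non-infarcted tissue, beside 64.6%. The members' sites stood out in the HpaII signal, whose median there lay between 76.2 and 85.6, against 26.9 to 32.4 over all sites. In the MspI signal it lay between 28.3 and 36.1, against 26.9 to 32.7 over all sites.

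Other gene lists gave a scale for these levels. The 34 measured genes of the Hox clusters had medians of 246% to 252% over the 4 samples, above the members. The 59 measured homeobox genes outside both groups had medians of 156% to 170%. Housekeeping genes, which are expressed in all cells, had 147% to 163% over 26 genes, and genes of the Polycomb complexes 125% to 138% over 30 genes. The members thus lay between the Hox genes and the other homeobox genes. No test was made of these differences.

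Nkx6-1 and Six6 were among the highest members. Nkx6-1, a gene of pancreatic beta cells and of motor neuron progenitors, had an HpaII to MspI ratio of 372% in Neil3-/- infarcted, 385% in Neil3-/- non-infarcted, 437% in WT infarcted and 388% in WT non-infarcted tissue, over 7 sites at chr5:101659184-101664711. Six6, a gene of the eye and pituitary, had 408% in Neil3-/- infarcted, 377% in Neil3-/- non-infarcted, 420.5% in WT infarcted and 370.1% in WT non-infarcted tissue, over 10 sites at chr12:72939882-72944899. In both genes the highest sample was WT infarcted tissue. Pax9, a gene of thymus, teeth and vertebrae, was also high with a mean of 372% over the 4 samples, and Emx2, a gene of the cerebral cortex and urogenital tract, had 360.5%. The ranges of these 4 genes over the samples overlap, so their order is within that spread.

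The lowest members were Pou2af1, Nkx6-3 and Pou1f1. Pou2af1, the B cell coactivator, had 75.6% in Neil3-/- infarcted, 87.7% in Neil3-/- non-infarcted, 73.5% in WT infarcted and 77.7% in WT non-infarcted tissue over 7 sites. Nkx6-3, a gene of gastric endocrine cells, ranged from 77.2% to 92.0% over the 4 samples with 12 sites. Pou1f1, which directs pituitary hormone cells, ranged from 78.8% to 93.1% with 6 sites. All 3 stayed below 100% in every sample, and their ranges overlap. Pou6f1 averaged 96.0%.

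The families differed in level, as the plot of levels by family shows. The 15 members grouped as Pou by name, with the coactivator Pou2af1 among them, had the lowest family median in every sample. It was 150.3% in Neil3-/- infarcted, 144% in Neil3-/- non-infarcted, 153% in WT infarcted and 141% in WT non-infarcted tissue. The 9 Pax genes had medians of 160.0% to 187% over the 4 samples. The 8 Lhx genes, LIM-domain factors of neurons and glands, had 189% to 211%, and the 6 Dlx genes of the forebrain and jaw had 204% to 229.7%. The 13 Nkx genes had 222% to 231%, and the 6 sine oculis genes 237% to 262%. Families did not move as blocks. In the cluster of chromosome 12 that holds Six4 and Six6, Six6 stood near the top while Six4, which lies at chr12:73099609-73114031, had 136% in Neil3-/- infarcted, 138% in Neil3-/- non-infarcted, 144% in WT infarcted and 138% in WT non-infarcted tissue.

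**Figure D1:**
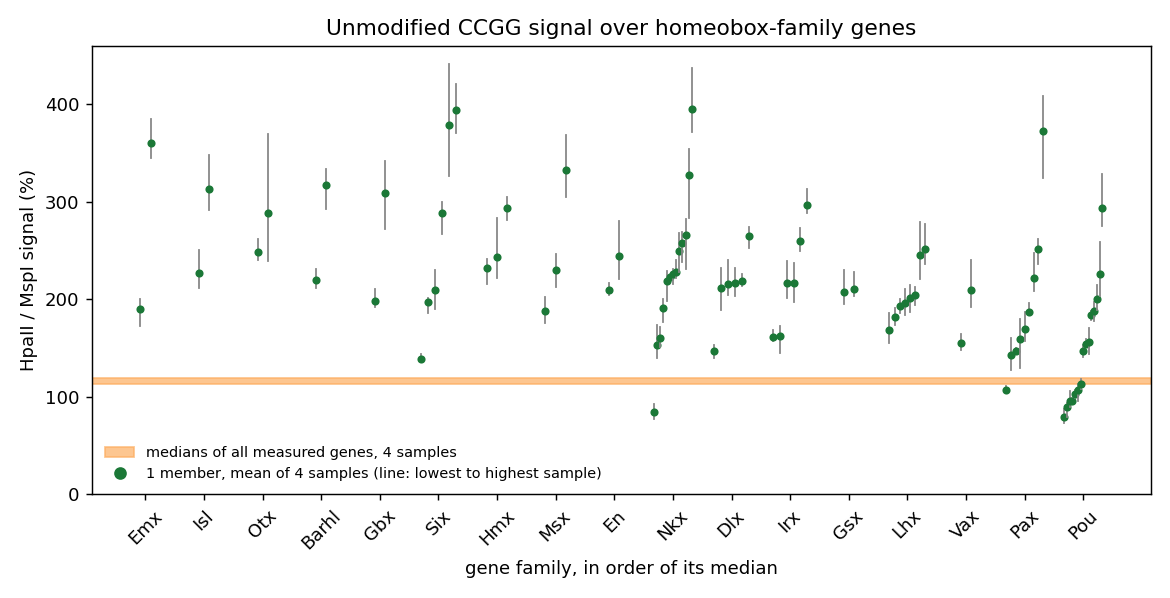
HpaII to MspI signal in percent (y axis) for the 85 members grouped by family (x axis, in order of the family median); each point is a member's mean over the 4 samples, its line runs from the lowest to the highest sample, and the band covers the medians of all measured genes. Nkx6-1 and Six6 stand near the top, and the members grouped as Pou by name reach down to the coactivator Pou2af1, Nkx6-3 being the lowest Nkx gene.

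Gene length went with the level. The Spearman correlation of the mean ratio with the span was -0.30 over the 85 members and -0.47 over all measured genes, both across genes that share the same libraries. In the 53 members with a span under 10 kb the median was 217% in Neil3-/- infarcted, 212% in Neil3-/- non-infarcted, 233% in WT infarcted and 221% in WT non-infarcted tissue. All measured genes of that length had medians of 156% to 163%. In the 10 members over 50 kb the medians were 134% to 152%, against 97.2% to 102% over all genes of that length. The members' medians were thus above those of other genes in the short and the long class alike. Pax5, the B cell lineage factor, is an example of a long gene. Its 197 sites over 186 kb gave 104% to 111% over the 4 samples, while the 8 sites between 2 and 8 kb downstream of a start gave 228% to 281%.

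The HpaII ratio was then read by distance from the gene start. Close to the start the level of the homeobox genes was near that of all genes. Within 500 bp of a RefSeq start, the 42 members with at least 2 sites there had a median HpaII to MspI ratio of 215% in Neil3-/- infarcted, 212% in Neil3-/- non-infarcted, 243% in WT infarcted and 201% in WT non-infarcted tissue. The 8950 genes measured there had medians of 225% to 232%. Above 200% were 24 of the 42 members in Neil3-/- infarcted, beside 60.2% of all genes, and 23 in Neil3-/- non-infarcted tissue, beside 61.4%. In WT infarcted tissue they were 26, beside 62.2% of all genes, and in WT non-infarcted tissue 21, beside 61%.

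Farther into the gene the level of all genes was lower, and that of the homeobox genes was not. Between 2 and 8 kb downstream of a start, the median of 54 members was 249.7% in Neil3-/- infarcted, 239.7% in Neil3-/- non-infarcted, 259% in WT infarcted and 241% in WT non-infarcted tissue. Over the 10021 genes measured in that zone the medians were 92.6% to 97.6%. Above the median gene were 51 of the 54 members in Neil3-/- infarcted tissue and 52 in each of the other 3 samples. Above 200% were 38 members in Neil3-/- infarcted tissue (70.4%, beside 11.9% of all genes) and 35 in Neil3-/- non-infarcted tissue (64.8%, beside 11.1%). In WT infarcted tissue they were 45 (83.3%, beside 12.6% of all genes) and in WT non-infarcted tissue 36 (66.7%, beside 11.5%). The zone was chosen after the values were seen, so these counts are a description.

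Short genes gave a like picture. In the 29 members under 10 kb with sites in that zone the median lay between 251% and 263% over the 4 samples, against 101% to 106% over short genes of any kind. Hox cluster genes were also high there, with 189.9% to 218% over 13 genes, and the 37 other homeobox genes had 197% to 227%. Housekeeping genes were high at the start, with 294% to 311% over 18 genes, and low in the downstream zone, with 77.1% to 90.9% over 13 genes. A high ratio in this zone was thus seen in the 3 homeobox lists and not in the housekeeping list. Beyond 8 kb the members' summed ratio was 124% to 131%, against 84.9% to 89.5% over all genes.

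Single members differed in how the zone compared with the start. Irx4, which marks ventricular heart muscle, had 20 sites in the zone, with 268% in Neil3-/- infarcted, 253% in Neil3-/- non-infarcted, 295% in WT infarcted and 286% in WT non-infarcted tissue. Its 2 sites near the start had 122% to 137% over the samples. Six2 had 302% to 382.5% over 12 downstream sites, and 101% to 109% over 4 sites near the start. In both genes the downstream part exceeded the start in every sample. Pax6, the eye and forebrain gene, had 284% to 316.5% over 18 downstream sites and 203% to 241% near the start. Many members ran the other way, so neither direction was general. Emx2 had 259.7% to 296% downstream and 709% to 1273% over 2 sites near the start. A low total stands under that value, with MspI signals of 4.72 to 8.63 at the site 100 bases before the start. Six3 had 249% to 266% downstream and 594% to 697% over 2 sites near the start. Otx2 had 143% to 251% over 2 downstream sites and 323% to 549% over 6 near the start. For Nkx1-1 it was 215% to 223% over 6 downstream sites and 349% to 390% over 3 near the start. By the mean of the 4 samples the lowest in the zone were Pou1f1, Nkx6-2, Six5, Six4, Pou2f2 and Pou2f1, whose values lay between 53.4% and 140.3% over the 4 samples. Nkx6-2, Six4, Six5 and Pou2f1 are among the genes whose window overlaps a neighbour.

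**Figure D2:**
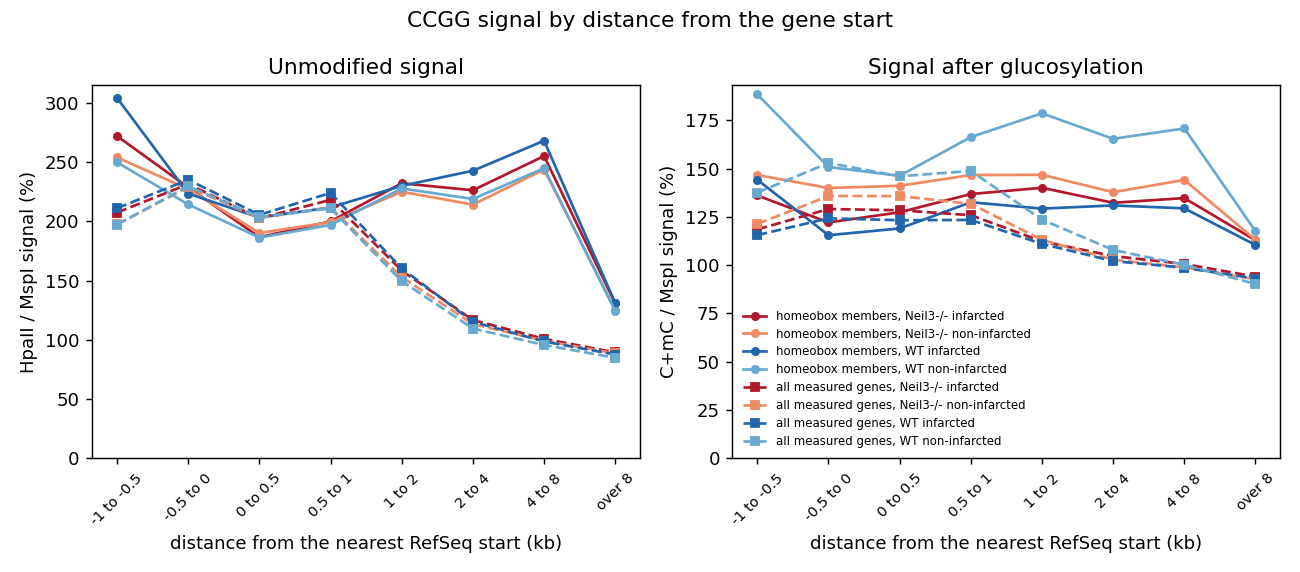
Summed HpaII (left) and C+mC (right) signal as a percent of summed MspI signal (y axes) by distance from the nearest RefSeq start in kb (x axes), for homeobox members (solid lines, circles) and all measured genes (dashed lines, squares) in the 4 samples. At 4 to 8 kb the HpaII ratio of the members was between 244% and 268% and that of all genes between 95.7% and 101%; the C+mC line of WT non-infarcted tissue lies above the other solid lines.

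The C+mC library gave a flatter picture. The median C+mC to MspI ratio of the members was 128% in Neil3-/- infarcted, 133% in Neil3-/- non-infarcted, 123% in WT infarcted and 155% in WT non-infarcted tissue. Over all measured genes the medians lay between 100.4% and 104%. Above 100% were 80 members in Neil3-/- infarcted tissue, beside 55.4% of all genes, and 80 in Neil3-/- non-infarcted tissue, beside 54.5%. In WT infarcted tissue they were 75, beside 50.9% of all genes, and in WT non-infarcted tissue 82, beside 56%. The step from the MspI to the C+mC library is meant to remove 5hmC, and where the C+mC ratio exceeds 100% no share of 5hmC can be read from it. By the mean of the 4 samples Nkx6-1 was the highest, with 192% in Neil3-/- infarcted, 199% in Neil3-/- non-infarcted, 179% in WT infarcted and 315% in WT non-infarcted tissue, ahead of Six6 with a mean of 213% and Hmx3, a gene of the inner ear, with 203%. These means include the library that stood apart, which gave the highest value of each gene. Hmx3 was above Nkx6-1 in Neil3-/- non-infarcted tissue, at 219%, and Six6 in WT infarcted tissue, at 195%. The lowest were Pou1f1 with a mean of 84.1% and Pou2f1, the broadly expressed factor Oct-1, with 87.1%.

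Genes high in the HpaII ratio were also high in the C+mC ratio. The Spearman correlation between the ratios across the 85 members was 0.652 in Neil3-/- infarcted, 0.768 in Neil3-/- non-infarcted, 0.681 in WT infarcted and 0.870 in WT non-infarcted tissue. Over all genes it lay between 0.567 and 0.726. Both ratios of a sample have the same MspI signal as divisor, so these values describe the libraries. The highest value belonged to the sample whose C+mC library stood apart.

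**Figure D3:**
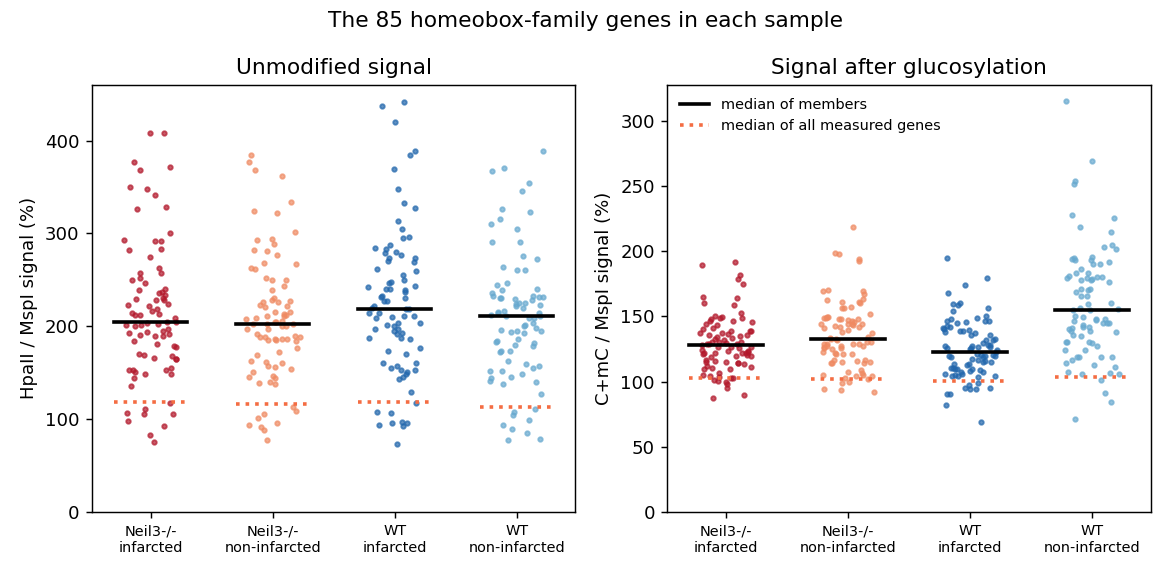
HpaII to MspI (left) and C+mC to MspI (right) signal in percent (y axes) for each of the 85 members (points) in the 4 samples (x axes); solid bars are the members' medians and dotted bars the medians of all measured genes. The members' HpaII medians lie between 203% and 219%, and their C+mC median is 155% in WT non-infarcted tissue against 123% to 133% in the other samples.

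The infarct comparison asks whether tissue inside the infarct differs from tissue outside it in each genotype. Differences are log2 ratios, infarcted minus non-infarcted, relative to the median of all measured genes, and a gene was counted when it differed by at least 0.3. Single sites are called higher or lower relative to the same median. With 1 sample a group no difference has a replicate check. In WT hearts the members' HpaII ratio moved little. The median difference was 0.04, with 56 of 85 members above the median gene. Of the 5 members counted, beside 5.51% of all genes, 2 were higher, beside 2.92%, and 3 were lower, beside 2.59%. Counted from a difference of 20 percentage points instead, which a gene of high level passes at a smaller fold, 29 members (34.1%) were past it, beside 14% of all genes, with 23 higher, beside 8.12%, and 6 lower, beside 5.84%. In Neil3-/- hearts the median difference was 0.03 with 52 members above the median gene. The 1 member counted, beside 3.06% of all genes, was higher, beside 1.76%, and none was lower, beside 1.29%.

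Among the members counted in WT hearts were Otx2, Pax4, Nkx2-6 and Irx3. Otx2, a gene of the forebrain and eye, had a ratio of 369.9% in infarcted and 239% in non-infarcted WT tissue, a log2 difference of 0.57 with all 11 sites higher. In Neil3-/- tissue it had 283% in infarcted and 262% in non-infarcted tissue, a difference of 0.08. Its WT infarcted value stands above the other 3 samples, which lie between 239% and 283%. En1, a gene of the midbrain and hindbrain, was next below the count at 0.28.

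Lower in WT infarcted tissue was Pax4, a gene of pancreatic endocrine cells, with 129.5% in infarcted and 179% in non-infarcted WT tissue. Its log2 difference was -0.53 with all 6 sites lower, and in Neil3-/- tissue it was 0.03. Nkx2-6, a gene of the pharyngeal pouches and early heart, had 284% in infarcted and 354% in non-infarcted WT tissue (-0.38, with 5 of 7 sites lower). Irx3, which acts in the fast conduction system of the ventricle, had 145% in infarcted and 172% in non-infarcted WT tissue (-0.31, with 9 of 11 sites lower). Nkx2-6 and Irx3 differed by 0.09 and -0.06 in Neil3-/- hearts. For these 4 genes the Neil3-/- samples were closer together than the WT samples. The genes were picked by their WT difference, so a smaller Neil3-/- difference can follow from that choice. Whether the genotypes differ in this was not tested.

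In Neil3-/- hearts the single member counted was Pax9. It had 408% in infarcted and 325% in non-infarcted tissue, a log2 difference of 0.30 with 14 of 19 sites higher. In WT hearts it had 389% in infarcted and 367% in non-infarcted tissue, a difference of 0.02. Gbx2, a gene of the hindbrain border, and Pou4f3, a gene of auditory hair cells, followed at 0.19 each. The most negative were Pou2af1 at -0.24 with all 7 sites lower and Dlx2, a gene of forebrain interneurons and the jaw, at -0.20. Neither reached 0.3.

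The infarct differences of the members showed little likeness between genotypes. Across the 85 members the Pearson correlation of the HpaII difference was 0.122 and the Spearman correlation 0.0808, and 47 of 85 (55.3%) had the same sign in both genotypes. Over all measured genes 57.6% had the same sign, with a Pearson correlation of 0.222. No member was counted in the same direction in both genotypes, beside 0.58% of all genes, a share at which 0 of 85 is no result about the members. In limma, with infarct and genotype as additive terms and 1 degree of freedom left by the 4 samples, no member and no gene passed an adjusted p of 0.05 for the infarct effect on the HpaII ratio. The lowest adjusted p among members was 0.409 (Gbx2, log2 0.20 ± 0.06 SE, higher in both genotypes). At an unadjusted p under 0.05 there were 5 members, 3 higher and 2 lower, beside 10.1% of all genes.

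**Figure D4:**
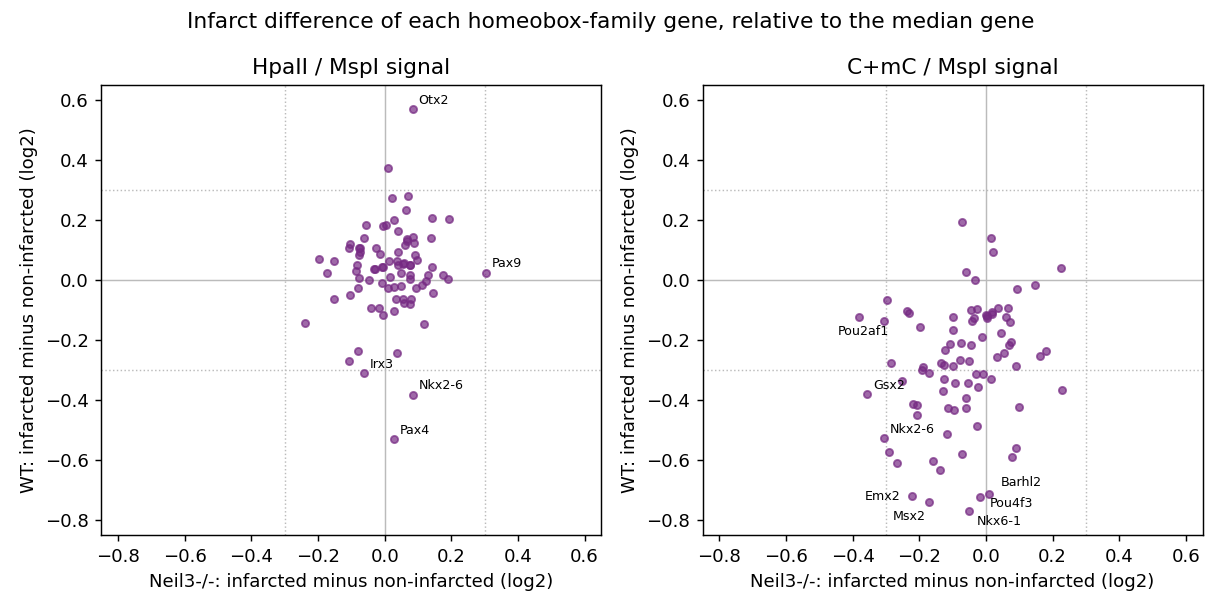
Infarct difference of each of the 85 members as log2, relative to the median gene, in Neil3-/- hearts (x axes) and WT hearts (y axes) for the HpaII (left) and C+mC (right) ratios; dotted lines mark 0.3 either way. In the left panel Otx2 (0.57 in WT) and Pax4 (-0.53 in WT) lie near 0 on the Neil3-/- axis, and in the right panel most points lie below 0 on the WT axis.

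For the C+mC ratio the WT infarct comparison stood out. The median difference of the members was -0.27, with 5 of 85 above the median gene. None was higher, beside 4.36% of all genes, and 35 were lower, beside 9.24%, which leaves 35 in either direction, beside 13.6%. In Neil3-/- hearts, whose libraries do not include the one that stood apart, the median was -0.05 with 28 members above the median gene. None was higher, beside 1.25% of all genes, and 4 were lower, beside 2.28%, which leaves 4 in either direction, beside 3.53%. The large count therefore occurs in the comparison that has the WT non-infarcted C+mC library in it.

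Part of the WT difference was shared with other genes of like unmodified level. Of all measured genes, 2643 non-members had a mean HpaII ratio between the members' 25th and 75th percentiles, 163% to 249%. Their median C+mC difference was -0.19 in WT and -0.04 in Neil3-/- hearts, with 746 of the 2643 lower by at least 0.3 in WT. Relative to those genes the members' median became -0.08 in WT and -0.01 in Neil3-/- hearts, and 14 of 85 members were lower in WT in place of 35. On that scale 5.75% of the like-level genes and 2.31% of all genes were lower. Counted in either direction there were 16 members (18.8%), beside 27.1% of all genes, most of which were higher on that scale. Higher on it were 2 members, beside 7.95% of the like-level genes and 24.8% of all genes. The Hox cluster genes had a median of -0.25 in WT and -0.13 in Neil3-/- hearts.

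The most negative members in WT were Nkx6-1, Msx2 and Pou4f3. Nkx6-1 had a C+mC ratio of 179% in infarcted and 315% in non-infarcted WT tissue, a log2 difference of -0.77 with all 7 sites lower. In Neil3-/- hearts it had 192% in infarcted and 199% in non-infarcted tissue, a difference of -0.05. Msx2, a gene of skull bone and heart valve cushions, had 127% in infarcted and 219% in non-infarcted WT tissue (-0.74, with 8 of 9 sites lower), and -0.17 in Neil3-/- tissue. Pou4f3 had 120.2% in infarcted and 204% in non-infarcted WT tissue (-0.72) and differed by -0.02 in Neil3-/- tissue. In each of these genes WT non-infarcted tissue was the highest sample. At the other end Nkx6-2, a gene of oligodendrocytes, differed by 0.19 in WT and Nkx6-3 by 0.14.

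In Neil3-/- hearts the 4 lower members included Pou2af1 (-0.38), Gsx2 (-0.36) and Nkx2-6 (-0.31). Gsx2, a gene of the ventral forebrain, had 115% in infarcted and 147% in non-infarcted Neil3-/- tissue, and 109.9% in infarcted and 148% in non-infarcted WT tissue. Nkx2-6 had 130.3% in infarcted and 161% in non-infarcted Neil3-/- tissue, and 121% in infarcted and 180.4% in non-infarcted WT tissue. Gsx2 and Nkx2-6 were lower by at least 0.3 in both genotypes, 2 of 85 members (2.35%), beside 0.592% of all genes and 1.74% of the genes at like level, and the WT comparison uses the library that stood apart. The most positive were Gsx1 (0.23), Pou3f2, a gene of neurons (0.22), and Lhx9 (0.18). Across the 85 members 58 (68.2%) had the same sign in both genotypes, against 54.2% of all genes and 59.6% of the genes at like level. Over the members the Pearson correlation was 0.240 and the Spearman correlation 0.287. These were 0.113 and 0.115 over all genes, and 0.0488 and 0.0480 over the genes at like level. In limma no member passed an adjusted p of 0.05 for the infarct effect on the C+mC ratio, and the lowest was 0.627. At an unadjusted p under 0.05 there were 25 members, all lower, beside 7.18% of all genes. The fit includes the library that stood apart, and its part in this count was not tested.

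The genotype comparison sets Neil3-/- against WT tissue. For the HpaII ratio the members lay slightly lower in Neil3-/- tissue relative to the median gene. Outside the infarct the median difference, Neil3-/- minus WT, was -0.04 with 25 of 85 members above the median gene, and no member reached 0.3 in either direction, beside 2.62% of all genes, 1.01% higher and 1.62% lower. Inside the infarct the median was also -0.04 with 27 above the median gene. Of the 4 members counted, beside 3.6% of all genes, 1 was higher, beside 1.6%, and 3 were lower, beside 2%. Genes of like level had medians of -0.03 outside and -0.02 inside the infarct. Without subtraction of the median gene, the members' medians were -0.00080 outside and -0.036 inside the infarct.

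Outside the infarct the most positive HpaII differences were those of Nkx3-2, a gene of cartilage and the axial skeleton (0.22), Nkx2-3, a gene of spleen and gut vessels (0.19), and Emx1, a gene of the cerebral cortex (0.17). The most negative were Gsx1, Pax9 and Dlx4, at -0.22 each. Inside the infarct the genes past 0.3 were Pax4, Otx2, Vax1 and Dlx2. Pax4 had 166% in Neil3-/- and 129.5% in WT infarcted tissue (0.35, with 5 of 6 sites higher). Otx2 had 283% in Neil3-/- and 369.9% in WT infarcted tissue (-0.39, with 10 of 11 sites lower). Both rest on the same WT infarcted values as the infarct differences above. Vax1, a gene of the optic nerve, had 192% in Neil3-/- and 240.4% in WT infarcted tissue (-0.33), and Dlx2 had 189% in Neil3-/- and 233% in WT infarcted tissue (-0.30). Nkx2-6 and Msx2 were the next most positive, at 0.29 and 0.27.

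In limma the genotype effect on the HpaII ratio called no member and no gene at an adjusted p of 0.05. The lowest adjusted p among members was 0.752. At an unadjusted p under 0.05 there were 11 members, all lower in Neil3-/- tissue, beside 6.57% of all genes. Lhx1, a gene of kidney and head organizer, had the lowest p of them, with a log2 effect of -0.23 ± 0.06 (SE, adjusted p = 0.752 in limma). It had 234% in Neil3-/- infarcted and 279% in WT infarcted tissue, and 220.3% in Neil3-/- non-infarcted and 247% in WT non-infarcted tissue.

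For the C+mC ratio the genotype comparison gave different medians in the 2 tissues, a difference that was not tested. Outside the infarct, where it uses the library that stood apart, the members' median was -0.17 with 12 of 85 above the median gene. Of the 22 members counted, beside 10.2% of all genes, 1 was higher, beside 4.16%, and 21 were lower, beside 6.04%. Inside the infarct the median was 0.03 with 45 above the median gene. Of the 5 members counted, beside 4.49% of all genes, 3 were higher, beside 2.19%, and 2 were lower, beside 2.3%. Genes of like level had medians of -0.13 outside and 0.02 inside the infarct. In limma no member passed the genotype effect on the C+mC ratio, the lowest adjusted p being 0.857, with 5 members at an unadjusted p under 0.05 beside 5.2% of all genes.

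Outside the infarct the most negative members were Nkx6-1 (199% in Neil3-/- and 315% in WT, -0.64), Nkx3-2 (144% in Neil3-/- and 228% in WT, -0.63, with all 6 sites lower) and Pax9 (144% in Neil3-/- and 226% in WT, -0.62, with 16 of 19 sites lower). Pou1f1 was the one member past 0.3 upward (0.41). Inside the infarct Pou1f1 had 103% in Neil3-/- and 68.5% in WT tissue (0.57, with 5 of 6 sites higher). Barhl2, a gene of retinal and spinal neurons, had 164% in Neil3-/- and 120.2% in WT tissue (0.43, with 11 of 13 sites higher), and Irx3 had 119% in Neil3-/- and 90.3% in WT tissue (0.38). Among the lower was Vax1 with 105% in Neil3-/- and 138% in WT tissue (-0.42). Pou1f1 was above 0.3 in both tissues.

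The 13 members with a part in the heart were followed as a list. They include Isl1, Irx1 to Irx6, Nkx2-6, Msx1, Msx2, Six2 and Pax3. Their median HpaII ratio was 212% in Neil3-/- infarcted, 202% in Neil3-/- non-infarcted, 239% in WT infarcted and 223% in WT non-infarcted tissue, close to the members as a whole. Isl1 had 292% in Neil3-/- infarcted, 302% in Neil3-/- non-infarcted, 348% in WT infarcted and 309.8% in WT non-infarcted tissue over 16 sites. Irx2 ranged from 289% to 313% over the 4 samples, and Irx4 from 249.7% to 273%. Irx3 ranged from 145% to 172% and Irx6 from 157% to 168%, and neither overlapped Irx1, Irx2, Irx4 or Irx5 in any sample. Irx4 and Irx3, which both act in the ventricle, thus stood apart in level over the whole window. By distance from a start the order was the other way in every sample. Between 2 and 8 kb downstream Irx3 had 314% to 403% over 4 sites, and Irx4 253% to 295% over 20 sites. Within 500 bp of a start Irx3 had 136% to 173% and Irx4 122% to 137%, over 2 sites each.

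The infarct difference of the heart list in the HpaII ratio had a median of 0.02 in WT and 0.03 in Neil3-/- hearts. By genotype the median was -0.08 outside and -0.10 inside the infarct. In the C+mC ratio all 13 were below the median gene in the WT infarct comparison, as were most of the 85 members. Their median there was -0.37, against -0.27 over the 85 members, and that comparison uses the library that stood apart. In the Neil3-/- comparison 12 of 13 were below the median gene. Their median there was -0.12, against -0.05 over the 85 members, and Nkx2-6 was among those lower by 0.3 or more. Nkx2-5, the cardiac member left out by the rule, lies at chr17:26838664-26844988. It had an HpaII ratio of 170.3% in Neil3-/- infarcted, 155% in Neil3-/- non-infarcted, 195% in WT infarcted and 163% in WT non-infarcted tissue over 12 sites. Its infarct difference was 0.20 in WT and 0.11 in Neil3-/- hearts.

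A list of 5 members tied to B cells or lymphoid organs had a median HpaII ratio of 111% in Neil3-/- infarcted, 105% in Neil3-/- non-infarcted, 107% in WT infarcted and 104% in WT non-infarcted tissue. They are Pax5, Pou2f2 and Pou2af1 of B cells, the broadly expressed Pou2f1, and Nkx2-3 of the spleen and gut vessels. Their infarct difference had a median of 0.03 in WT and 0.04 in Neil3-/- hearts. White blood cells enter an infarct, so markers of 4 cell types were read in the same way. For 18 measured cardiomyocyte markers the HpaII infarct difference had a median of -0.21 in WT and -0.17 in Neil3-/- hearts, with 2 of 18 above the median gene in WT and 3 in Neil3-/- hearts. For 16 leukocyte markers it was 0.10 in WT and 0.00 in Neil3-/- hearts, for 12 endothelial markers -0.11 in WT and -0.03 in Neil3-/- hearts, and for 11 fibroblast markers 0.05 in both. The median levels over the 4 samples were 112% to 126% for cardiomyocyte markers and 109% to 121% for leukocyte markers. In DNA from whole tissue a shift in the mix of cells and a change inside a cell type cannot be told apart, and the part of either in the members' differences was not tested.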

How the data were processed

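Genomic DNA of 4 left ventricle samples was profiled by HMST-seq with 3 libraries each, per the labels' protocols. The deposited values are a signal per CCGG site and library that the authors normalized, with mm10 as the genome build in the submitters' processing notes. The sources used here do not say how they were normalized, aligned and filtered. The libraries of a sample have nearly equal totals, so absolute modification levels are lost. The number of tags is unknown and no counting interval is given. Checked against the RefSeq start windows, a listed position is the base before the first C of a CCGG site.

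Genes and spans came from a RefSeq table of the same assembly. Signals were summed over sites listed in all 4 samples within the span and 1 kb on either side, with at least 5 sites, and no filter on signal. Differences are log2 ratios minus the median of all measured genes, counted from 0.3 (a fold of 1.23). With 1 sample a group they have no test. The additive infarct and genotype effects were fitted over all measured genes with limma 3.58.1 in R 4.3.3, without a mean-variance trend, with Benjamini-Hochberg adjustment at 0.05. The steps were tested on simulated data, in Python 3.11.15 with numpy 2.4.6, pandas 2.3.3 and matplotlib 3.10.9. Named members were the 3 highest and 3 lowest per comparison and per level, those of the heart and lymphoid lists, and any member passing limma; further ones were named after their values were seen, among them Pax9 and Emx2 among the highest levels, members past 0.3, examples by distance and by length, and the lowest p in limma. Some members that fall under this rule are not reported by name here. The members, lists and rules were chosen with earlier results of these data known. Alternatives tried were a minimum site signal of 10, the median of site ratios, the gene end with more sites, 10 sites per gene, no subtraction of the median gene, a call at 20 percentage points, a mean-variance trend in limma, and, added after the values were seen, subtraction of the median of genes at like level.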

Additional observations from a re-analysis of the deposited data

Results flagged for a closer look

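A few results pointed opposite ways in the 2 genotypes or the 2 tissues, by at least 0.1 on the log2 scale for a gene. With 1 sample a group none of these differences was tested. In the HpaII ratio the genotype difference of Pax4, Neil3-/- minus WT, was 0.35 inside and -0.20 outside the infarct. In the C+mC ratio the infarct difference of Gsx1, infarcted minus non-infarcted, was 0.23 in Neil3-/- and -0.37 in WT hearts. The median genotype difference of the members in the C+mC ratio was 0.032 inside and -0.17 outside the infarct. Single members with opposite C+mC genotype differences were Barhl2 (0.43 inside and -0.29 outside), Gsx1 (0.27 and -0.32), Msx2 (0.22 and -0.34), Nkx1-1 (0.17 and -0.35), Pou4f3 (0.28 and -0.43) and Six3 (0.11 and -0.37), the value inside the infarct standing before the one outside. All C+mC values outside the infarct, and those of WT hearts, use the WT non-infarcted C+mC library that stood apart, and its part in them was not tested.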

How the results depend on the processing

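No paired analysis was possible because each group has 1 sample and the labels give no replicate numbers, and for the same reason no replicate could be left out. Of the alternatives, 27 of 56 counts of members, 20 of 48 median differences and 10 of 24 median levels moved by less than 1.5 times (counts) or 1 SE over members (medians). All 12 limma counts stayed at 0. Under a mean-variance trend, 2 members had an unadjusted p under 0.05 for HpaII infarct, beside 10.6% of all genes. For HpaII genotype they were 5, beside 6.48%. For C+mC infarct they were 15, beside 7.37%, and for C+mC genotype 6, beside 5.56%. With 10 sites the C+mC genotype effect had 11 of 62 members at an unadjusted p under 0.05, 1 higher and 10 lower, beside 5.38% of all genes, against 5 of 85 with 5 sites. In 3 of the 48 median differences the sign turned, each to a value near 0. The cause of these moves was not tested. Some settings also leave fewer genes: 62 members with 10 sites, 31 at the gene end with more sites and 84 at a signal of 10.

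With the median of site ratios, the HpaII level of the members was 243% in Neil3-/- infarcted, 247% in Neil3-/- non-infarcted, 272% in WT infarcted and 253% in WT non-infarcted tissue, and the C+mC level 139%, 146%, 133% and 184% in the same samples. At the gene end with more sites the HpaII levels were 191%, 188%, 197% and 194%, and the C+mC levels moved to 115% in WT infarcted and 137% in WT non-infarcted tissue.

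The median HpaII differences, by infarct in WT, by infarct in Neil3-/-, by genotype outside and by genotype inside the infarct, stayed between -0.10 and 0.11. Those that moved were 0.088, 0.018 and -0.10 with the median of site ratios (infarct in WT, infarct in Neil3-/-, genotype inside), 0.087, -0.068 and 0.0034 at the gene end (infarct in Neil3-/-, genotype outside, genotype inside), and 0.042, -0.054 and -0.064 with 10 sites (likewise). Without subtraction of the median gene they were 0.11, 0.055 and -0.00080 (infarct in WT, infarct in Neil3-/-, genotype outside), and relative to genes at like level -0.0073 outside and -0.020 inside the infarct for genotype.

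The median C+mC difference by infarct in WT was -0.31 with the median of site ratios, -0.31 without subtraction of the median gene, -0.080 relative to genes at like level and -0.0022 at the gene end. By infarct in Neil3-/- it was -0.068 with the median of site ratios, -0.011 relative to genes at like level and -0.00064 at the gene end. By genotype outside the infarct it was -0.23 with site ratios, -0.19 without subtraction, -0.040 relative to genes at like level and 0.012 at the gene end. By genotype inside the infarct it was 0.0071 with site ratios, 0.055 without subtraction and -0.00067 with 10 sites.

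Counts of members past 0.3 in the HpaII ratio (5, 1, 0 and 4 in the order above) became 16, 20, 16 and 21 with site ratios, 18.8%, 23.5%, 18.8% and 24.7% of members beside 29.1%, 24.4%, 24.1% and 26.3% of all genes. The higher and lower members were then 12 and 4, 10 and 10, 8 and 8, and 4 and 17. At 20 percentage points the counts were 29, 16, 22 and 25, beside 14.0%, 9.78%, 8.70% and 11.1% of all genes, with 23 and 6, 14 and 2, 8 and 14, and 4 and 21 higher and lower. At the gene end, of 31 members, they became 2 and 0 for infarct in WT and Neil3-/- and 2 for genotype inside, beside 13.2%, 7.72% and 10.4% of all genes. With 10 sites, of 62 members, they were 3 for infarct in WT and 2 for genotype inside, beside 2.69% and 1.54%. For infarct in Neil3-/- the count was 0 both at a signal of 10, beside 2.84%, and relative to genes at like level, beside 3.08%.

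The C+mC counts (35, 4, 22 and 5) became 16 for infarct in Neil3-/-, 39 for genotype outside and 16 for genotype inside with site ratios, beside 15.0%, 25.02% and 14.8% of all genes. At 20 percentage points they were 13, 40 and 9, beside 5.82%, 14.3% and 6.34%. At the gene end they were 10 of 31 for infarct in WT, 2 for infarct in Neil3-/- and 6 for genotype outside, beside 27.5%, 10.9% and 22.1%. Relative to genes at like level they were 16, 2 and 7 of 85 for infarct in WT, infarct in Neil3-/- and genotype outside, beside 27.1%, 3.77% and 15.2%. Lower among them were 14, 2 and 5, beside 2.31%, 1.51% and 1.92% of all genes. Higher were 2, 0 and 2, beside 24.8%, 2.26% and 13.3%. With 10 sites they were 1 for infarct in Neil3-/- and 3 for genotype inside, of 62, beside 1.28% and 1.80%.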
